A study of Mus musculus with 8 samples.

Results

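Art4, Rab6b, Pdlim3, Prkab2 and Nup210l are 5 of the 34399 gene symbols counted in fibroblasts sorted from pressure-overloaded mouse hearts. They were selected on measured values, because each was higher in fibroblasts lacking Smad2 and Smad3 and lower in fibroblasts lacking Tgfbr1 and Tgfbr2, each time against that knockout's own control. Both contrasts were thus used to choose them, and their differences in these contrasts are given as a description, which no test supports. All 5 passed the filter on low counts in both comparisons, so none is missing from what follows.

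Smad2/3 DKO fibroblasts came from mice with loxP-flanked Smad2 and Smad3 and a MerCreMer cDNA in the Postn locus, and Postn-Cre control fibroblasts from mice with the same driver and no floxed allele named in the labels. Tgfbr1/2 DKO fibroblasts carried loxP-flanked Tgfbr1 and Tgfbr2 with MerCreMer in the Tcf21 locus, and Tcf21-Cre control fibroblasts carried that driver alone. Mice of all 4 groups had a Cre-dependent eGFP reporter in Rosa26, received tamoxifen (100 mg/kg on 2 consecutive days, then chow at 40 mg/kg), and underwent transverse aortic constriction (TAC), a surgical narrowing of the aorta, at 8 to 10 weeks of age. GFP-positive ventricular cells were sorted 4 weeks after TAC, and each group has 2 libraries, named here by their HK numbers.

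The Smad2/3 comparison and the Tgfbr1/2 comparison were sequenced in separate runs, each with its own controls. Between them the driver, the run and the targeted genes change together and cannot be told apart. Postn is a gene that fibroblasts switch on when activated, while Tcf21 marks resident fibroblasts, so each driver sets which cells carry GFP. The labels do not say whether libraries of a group are separate animals or pools, so errors and p-values speak to how these libraries vary, which may be technical. In bulk RNA, fewer cells of a type and less RNA per cell cannot be told apart.

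TGF-beta ligands bind the type II receptor Tgfbr2, which recruits and activates the type I receptor Tgfbr1. Tgfbr1 phosphorylates Smad2 and Smad3, which enter the nucleus with Smad4 and act on genes at short CAGAC-containing elements, and the receptors also signal without Smads. In cardiac fibroblasts the pathway is known for driving matrix production and conversion to myofibroblasts. The 5 genes are not a known pathway. Art4 belongs to the mono-ADP-ribosyltransferase family and in humans carries the Dombrock blood group antigens on the cell surface. Rab6b is a small GTPase of Golgi trafficking, the isoform of Rab6a that is enriched in brain. Pdlim3 (actinin-associated LIM protein) binds alpha-actinin with its PDZ domain at muscle Z-lines. Prkab2 is the beta-2 subunit of AMP-activated protein kinase (AMPK), which joins the catalytic and the regulatory gamma subunit and binds glycogen. Nup210l is a relative of the transmembrane nucleoporin Nup210 and is known for its expression in mouse testis.

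The start regions of 4 of the genes are shown because Smad2 and Smad3 act on DNA, and their letters let the genes be compared at the site where transcription begins. Each runs 250 bases before to 50 bases after the annotated start, read on the gene's strand, from RefSeq on GRCm38.p6, the assembly also called mm10. Capitals mark CAGAC or its reverse complement GTCTG, searched on both strands. The windows are chr6:136857551-136857850 (minus strand) for Art4, chr9:103111824-103112123 (plus) for Rab6b, chr8:45885237-45885536 (plus) for Pdlim3 and chr3:97657962-97658261 (plus) for Prkab2.
Art4: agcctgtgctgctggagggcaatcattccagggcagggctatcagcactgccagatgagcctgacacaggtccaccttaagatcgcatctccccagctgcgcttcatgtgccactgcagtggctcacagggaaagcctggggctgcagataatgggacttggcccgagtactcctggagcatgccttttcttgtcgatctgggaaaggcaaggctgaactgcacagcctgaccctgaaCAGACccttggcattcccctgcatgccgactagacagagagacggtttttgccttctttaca
Rab6b: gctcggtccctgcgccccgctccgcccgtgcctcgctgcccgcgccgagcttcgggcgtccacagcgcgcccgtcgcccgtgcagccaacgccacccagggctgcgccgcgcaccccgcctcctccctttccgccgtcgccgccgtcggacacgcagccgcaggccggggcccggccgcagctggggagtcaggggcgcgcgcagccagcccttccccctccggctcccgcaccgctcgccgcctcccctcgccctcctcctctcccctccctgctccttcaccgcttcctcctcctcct
Pdlim3: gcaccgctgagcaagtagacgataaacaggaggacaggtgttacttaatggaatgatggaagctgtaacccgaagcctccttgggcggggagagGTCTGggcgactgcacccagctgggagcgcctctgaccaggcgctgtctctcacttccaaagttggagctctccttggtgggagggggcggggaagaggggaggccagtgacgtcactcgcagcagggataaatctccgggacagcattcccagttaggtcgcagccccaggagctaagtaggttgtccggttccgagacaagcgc
Prkab2: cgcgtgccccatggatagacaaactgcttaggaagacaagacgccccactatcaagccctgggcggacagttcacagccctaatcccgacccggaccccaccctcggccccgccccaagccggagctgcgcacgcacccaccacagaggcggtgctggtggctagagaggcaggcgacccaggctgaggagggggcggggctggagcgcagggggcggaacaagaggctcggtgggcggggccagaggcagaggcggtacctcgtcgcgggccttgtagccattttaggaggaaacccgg

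The Art4 window held 1 match, 12 bases before the start, and the Pdlim3 window held 1 match, 156 bases before it. No match was found in the Rab6b or the Prkab2 window. Of 32851 RefSeq windows of this length, 49.6% held at least 1 match, so the letters do not set these genes apart. The palindrome GTCTAGAC, which contains GTCT and AGAC, was in none of the 4 windows and in 0.213% of all. Base composition varied widely among them, with 78.7% G and C in the Rab6b window, 68% in Prkab2, 59.7% in Pdlim3 and 56.3% in Art4, against a median of 52.7% over all windows. A match is a run of letters and was not tested for binding.

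The genes lie on 4 chromosomes (GENCODE vM21 on GRCm38) and each is annotated as protein coding. Art4 (ENSMUSG00000030217) spans chr6:136848451-136857733 on the minus strand. The others are on the plus strand, with Rab6b (ENSMUSG00000032549) at chr9:103111787-103185276, Pdlim3 (ENSMUSG00000031636) at chr8:45885461-45919548, Prkab2 (ENSMUSG00000038205) at chr3:97658193-97673812 and Nup210l (ENSMUSG00000027939) at chr3:90104132-90212048. Prkab2 and Nup210l share a chromosome at a distance of 7.446 Mb. Rab6b shares chromosome 9 with 2 of the targeted genes, 12.9 Mb from Tgfbr2 and 39.35 Mb from Smad3. No strand step is described for the counting, so overlapping genes cannot be told apart by strand. CPM, the unit of level used throughout, is a gene's count divided by its library total and multiplied by 1000000. Only Prkab2 shares exon sequence with another annotated gene, 9 bases with Gm17651 on the opposite strand, which stayed under 1 CPM in all 8 libraries.

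Depth was similar across libraries, with total counts of 21477664 to 32594508, at which 3 counts, used here as the limit of detection, equal 0.092 to 0.14 CPM.  All 10 fibroblast markers were detected in every library, with Dcn at 8965 to 15430 CPM. Their summed level was 17570 and 17520 CPM in Smad2/3 DKO, against 25840 and 22550 CPM in Postn-Cre controls, and 31180 and 31190 CPM in Tgfbr1/2 DKO, against 34620 and 43780 CPM in Tcf21-Cre controls. The sum was lower in both DKO groups, but the markers did not move as one. Col1a1, Col1a2, Col3a1, Lum and Ddr2 were lower in both Smad2/3 DKO libraries. Col3a1 had 1067 and 1147 CPM there, against 5130 and 4307 CPM in Postn-Cre controls. Dcn, Pdgfra and Dpt overlapped in that comparison, and Tcf21 and Postn were higher in both DKO libraries. In both Tgfbr1/2 DKO libraries Dcn, Lum and Dpt were lower, and the other markers overlapped. The part of the sum in the values of the 5 genes was not tested. The targeted genes were still counted in the DKO libraries. Smad2 had 84.5 and 78.2 CPM in Smad2/3 DKO, against 95.4 and 82.3 CPM in Postn-Cre controls, and Smad3 had 70.5 and 109 CPM, against 114 and 92.7 CPM. Tgfbr1 had 181 and 193 CPM in Tgfbr1/2 DKO, against 229 and 238 CPM in Tcf21-Cre controls, and Tgfbr2 had 471 and 406 CPM, against 370 and 406 CPM. A count over the whole gene does not show whether floxed exons were lost, so these values do not check the labels. The groups also differed in the female-specific RNA Xist, at 277 and 75.3 CPM in Smad2/3 DKO, against 3.65 and 2.18 CPM in Postn-Cre controls, while the Y-linked Ddx3y was at 132 to 222 CPM in these 4 libraries. The part of animal sex in the differences was not tested.

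Art4 showed the largest difference of the 5 genes in the Smad2/3 comparison. It had 12.3 CPM (HK15) and 10.8 CPM (HK16) in Smad2/3 DKO fibroblasts, against 0.231 CPM (HK3) and 0.218 CPM (HK4) in Postn-Cre controls. These control values rest on 6 and 5 counts, just above the limit of detection, while the DKO libraries had 315 and 232 counts. The log2 fold change was 5.60 ± 0.59 (SE, n = 2 each), or 48.4-fold higher, and the small control counts make its size imprecise. In the authors' deposited table the log2 fold change of Art4 was 2.20, a smaller value than the one fitted here.

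Art4 was lower in the Tgfbr1/2 comparison, with 4.76 CPM (HK2) and 2.84 CPM (HK4) in Tgfbr1/2 DKO fibroblasts, against 10.9 CPM (HK6) and 13.1 CPM (HK7) in Tcf21-Cre controls. The groups did not overlap, and both DKO libraries were lower. The log2 fold change was -1.60 ± 0.33 (SE, n = 2 each), or 3.03-fold lower. Since Art4 is a red cell antigen in humans, erythroid markers stand beside these values. The summed level of the 7 erythroid markers in the files was 12.9 and 15.8 CPM in Smad2/3 DKO, against 35.8 and 6.26 CPM in Postn-Cre controls. It was 135 and 47.2 CPM in Tgfbr1/2 DKO, against 26.2 and 43.1 CPM in Tcf21-Cre controls. In both comparisons the erythroid sum ran opposite to Art4 or overlapped between groups.

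Rab6b showed the largest difference of the 5 genes in the Tgfbr1/2 comparison. It had 2.36 CPM (HK2) and 3.07 CPM (HK4) in Tgfbr1/2 DKO fibroblasts, against 91.8 CPM (HK6) and 50.7 CPM (HK7) in Tcf21-Cre controls. Both DKO libraries were far under both controls, and the controls themselves were spread widely. The log2 fold change was -4.61 ± 0.33 (SE, n = 2 each), or 24.4-fold lower. In the Smad2/3 comparison Rab6b had 46.8 CPM (HK15) and 42.3 CPM (HK16) in Smad2/3 DKO fibroblasts, against 14.5 CPM (HK3) and 17.4 CPM (HK4) in Postn-Cre controls. The groups were well apart, with a log2 fold change of 1.43 ± 0.26 (SE, n = 2 each), or 2.69-fold higher. Because Rab6b is enriched in brain, neuron and Schwann cell markers stand beside it. Their sum over 10 markers was 50.2 and 38.3 CPM in Smad2/3 DKO, against 34.2 and 31.8 CPM in Postn-Cre controls, and 42.7 and 29.0 CPM in Tgfbr1/2 DKO, against 54.4 and 28.7 CPM in Tcf21-Cre controls. The sum was higher in both Smad2/3 DKO libraries, as Rab6b was, and overlapped between Tgfbr1/2 DKO and Tcf21-Cre control libraries, where Rab6b did not. Whether such cells had a part in the Rab6b values was not tested.

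Pdlim3 was higher in both Smad2/3 DKO libraries, with 50.2 CPM (HK15) and 48.4 CPM (HK16), against 13.9 CPM (HK3) and 8.87 CPM (HK4) in Postn-Cre controls. The DKO libraries nearly matched each other and the controls were lower and less even. The log2 fold change was 2.05 ± 0.30 (SE, n = 2 each), or 4.14-fold higher. Pdlim3 was lower in Tgfbr1/2 DKO fibroblasts, at 35.6 CPM (HK2) and 34.3 CPM (HK4), against 98.4 CPM (HK6) and 109 CPM (HK7) in Tcf21-Cre controls. The groups were again apart, with a log2 fold change of -1.49 ± 0.19 (SE, n = 2 each), or 2.81-fold lower. Pdlim3 is a muscle Z-line protein, so muscle markers were read in the same libraries. The sum of 10 cardiomyocyte markers was 760 and 709 CPM in Smad2/3 DKO, against 663 and 717 CPM in Postn-Cre controls, and 661 and 570 CPM in Tgfbr1/2 DKO, against 567 and 569 CPM in Tcf21-Cre controls. The sum of 10 pericyte and smooth muscle markers was 1042 and 754 CPM in Smad2/3 DKO, against 1549 and 846 CPM in Postn-Cre controls, and 884 and 958 CPM in Tgfbr1/2 DKO, against 993 and 754 CPM in Tcf21-Cre controls. Except for the cardiomyocyte sum in the Tgfbr1/2 comparison, which was higher in both DKO libraries but barely so in HK4, these sums overlapped between DKO and control. Most of the cardiomyocyte sum was Atp2a2, at 634 and 582 CPM in Smad2/3 DKO, against 451 and 534 CPM in Postn-Cre controls. Tnnt2 was also higher in both Smad2/3 DKO libraries. Myh6, Tnni3, Actc1, Ttn, Ryr2 and Pln were lower in both, opposite to Pdlim3, and Myl2 and Myl3 overlapped. The part of muscle cells in the Pdlim3 values was not tested.

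Prkab2 had the highest level of the 5 per kilobase of exon in 7 of the 8 libraries, all but control HK7, and the smallest log2 fold changes. It had 295 CPM (HK15) and 290 CPM (HK16) in Smad2/3 DKO fibroblasts, against 136 CPM (HK3) and 148 CPM (HK4) in Postn-Cre controls. The libraries within each group lay close together, and the log2 fold change was 0.98 ± 0.15 (SE, n = 2 each), or 1.98-fold higher. Prkab2 was lower in Tgfbr1/2 DKO fibroblasts, at 56.0 CPM (HK2) and 56.9 CPM (HK4), against 117 CPM (HK6) and 105 CPM (HK7) in Tcf21-Cre controls. Again the groups were apart, with a log2 fold change of -0.89 ± 0.18 (SE, n = 2 each), or 1.85-fold lower. Per kilobase of exon, Prkab2 stood at 57.8 and 56.8 CPM in Smad2/3 DKO libraries, where Art4, the lowest of the 5 there, stood at 4.90 and 4.29 CPM.

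Nup210l had 94.4 CPM (HK15) and 79.6 CPM (HK16) in Smad2/3 DKO fibroblasts, against 29.6 CPM (HK3) and 29.4 CPM (HK4) in Postn-Cre controls. The controls were almost equal and the DKO libraries both higher, with a log2 fold change of 1.502 ± 0.21 (SE, n = 2 each), or 2.83-fold higher. Nup210l was lower in Tgfbr1/2 DKO fibroblasts, at 21.9 CPM (HK2) and 21 CPM (HK4), against 50.2 CPM (HK6) and 40.7 CPM (HK7) in Tcf21-Cre controls. The groups did not overlap, and the log2 fold change was -0.997 ± 0.20 (SE, n = 2 each), or 2.00-fold lower. Mouse Nup210l is known from testis, so germ cell markers were summed over 10 genes. Their sum was 3.64 and 3.73 CPM in Smad2/3 DKO, against 3.08 and 3.52 CPM in Postn-Cre controls, and 1.72 and 0.969 CPM in Tgfbr1/2 DKO, against 1.61 and 1.95 CPM in Tcf21-Cre controls. The sum was slightly higher in both Smad2/3 DKO libraries and overlapped in the Tgfbr1/2 comparison. Of the 10, Dazl, Tnp1 and Tex101 were at or under the limit of detection in all 8 libraries and 7 were above it in at least 1. Among these, Sycp3 had 1.84 and 1.40 CPM in Smad2/3 DKO, against 0.808 and 0.827 CPM in Postn-Cre controls. Prm1 was also higher in both Smad2/3 DKO libraries. Ddx4 was lower in both, at 0.627 and 0.419 CPM, against 0.885 and 1.39 CPM in Postn-Cre controls, and so was Acr. Prm2, Zpbp and Spata18 overlapped between these groups. The part of germ cell RNA in the Nup210l values was not tested.

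**Figure D1:**
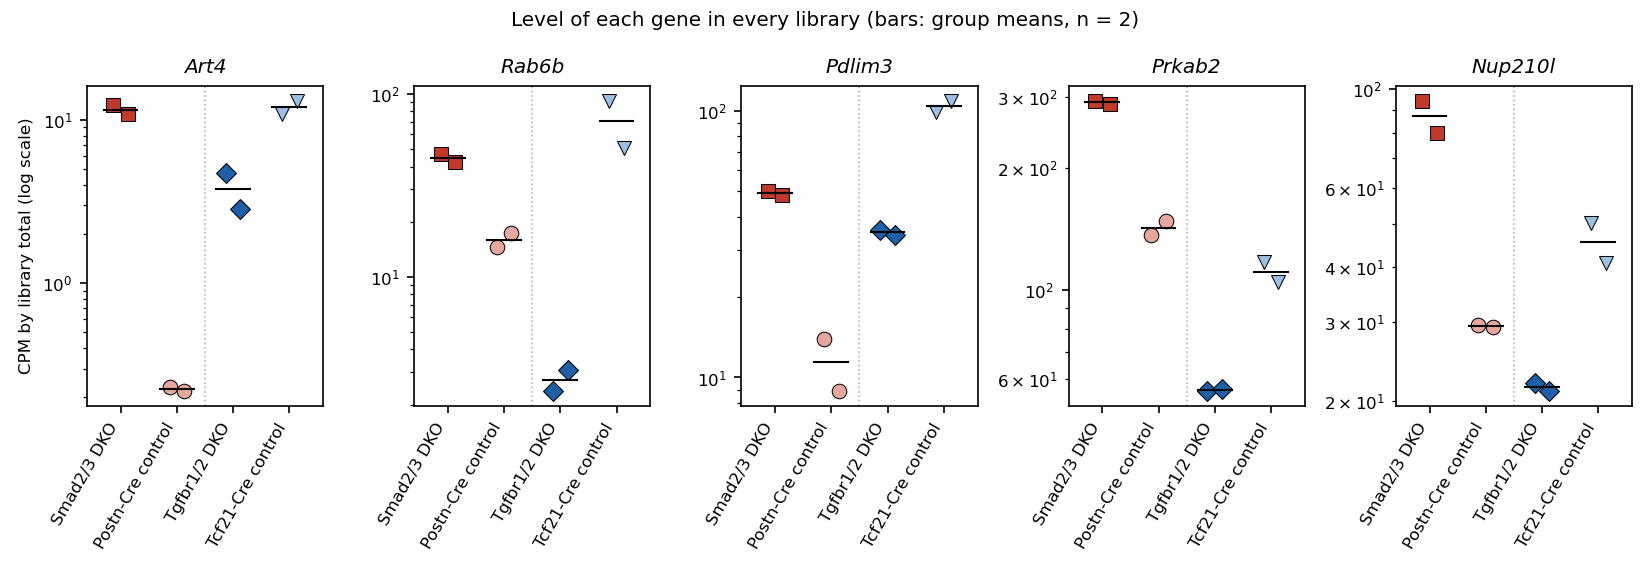
Level of each gene in every library, in CPM on a log axis, with groups along the horizontal axis, a point per library and a bar at each group mean (n = 2). In each panel the Smad2/3 DKO points lie above the Postn-Cre control points and the Tgfbr1/2 DKO points lie below the Tcf21-Cre control points, most widely for Art4 on the left side (48.4-fold) and Rab6b on the right (24.4-fold).

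The order of the 4 groups differed among the genes. Art4 and Pdlim3 ran, high to low, Tcf21-Cre control, Smad2/3 DKO, Tgfbr1/2 DKO, Postn-Cre control. For Art4 the means were 12.0 ± 1.59 CPM in Tcf21-Cre controls and 11.6 ± 1.09 CPM in Smad2/3 DKO (SD, n = 2 each), which overlapped, while its other neighbours in the order did not. The Art4 mean in Tcf21-Cre controls was 53.6 times that in Postn-Cre controls, beside a ratio of 51.6 between the Smad2/3 DKO mean and the same controls. For Pdlim3 the Tcf21-Cre control mean was 9.10 times the Postn-Cre control mean, and no neighbouring groups overlapped.

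Rab6b ran Tcf21-Cre control, Smad2/3 DKO, Postn-Cre control, Tgfbr1/2 DKO. Its Tcf21-Cre control mean was 4.48 times the Postn-Cre control mean. The means in the first 2 groups of that order were 71.2 ± 29.0 and 44.5 ± 3.18 CPM (SD, n = 2 each), a gap smaller than the spread of the controls. Prkab2 ran Smad2/3 DKO, Postn-Cre control, Tcf21-Cre control, Tgfbr1/2 DKO, with control means that differed 1.28-fold. Nup210l ran Smad2/3 DKO, Tcf21-Cre control, Postn-Cre control, Tgfbr1/2 DKO, with control means that differed 1.54-fold. Neither had neighbouring groups that overlapped. Control levels thus differed most between the 2 lineages for Art4, then Pdlim3 and Rab6b, and least for Prkab2 and Nup210l. Orders across the comparisons also cross runs and drivers.

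Over the 8 libraries the log2(CPM + 1) levels of Art4 and Pdlim3 had a Pearson r of 0.934, and those of Prkab2 and Nup210l an r of 0.889. Pdlim3 and Prkab2 had an r of 0.00076, so the shared directions within the comparisons did not make the 5 profiles alike. These r are descriptions over 8 points that share 4 groups and 2 runs. Profiles were compared over 12238 genes with a mean of at least 1 CPM, leaving out predicted genes, clone-named genes and pseudogenes. Among these, the most alike were Dnase2a and Ptpn6 for Art4 (r of 0.979 and 0.978) and Padi2 and Scaper for Rab6b (0.971 and 0.966). They were Paip2b and Aldh1a1 for Pdlim3 (0.984 and 0.976), Brd7 and Sema3d for Prkab2 (0.995 and 0.989), and Bicd1 and Paf1 for Nup210l (0.996 and 0.985).

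The 5 genes are part of a small set. With edgeR's quasi-likelihood test and Benjamini-Hochberg adjustment over all genes, 206 of 15760 genes had an adjusted p under 0.05 in the Smad2/3 comparison (1.31%), of which 71 were higher in DKO (0.451%) and 135 lower (0.857%). The Tgfbr1/2 comparison had 657 of 16658 (3.94%), of which 439 were higher in DKO (2.64%) and 218 lower (1.31%). Of 15017 genes tested in both, 26 passed in both, which is 13.1% of the 199 passing in the Smad2/3 comparison and 4.34% of the 599 passing in the Tgfbr1/2 comparison. Among these 26, 5 were higher in both DKO groups (0.0333% of genes tested) and 6 lower in both (0.04%). The other 15 moved oppositely, 5 of them lower in Smad2/3 DKO and higher in Tgfbr1/2 DKO (0.0333%) and 10 higher in Smad2/3 DKO and lower in Tgfbr1/2 DKO (0.0666%). The 5 described here are among those 10, and the others were Sema3d, Peg3, Smoc1, Ang and Dkk3. Nothing is read from the share of the 5 that passed, since passing chose them.

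The adjusted p-values of the members describe the selection and are no evidence for it. On the larger of the 2 adjusted p-values from edgeR's quasi-likelihood test, Art4 was the member nearest the threshold at 0.0277. Dkk3, no member, was the last gene inside it at 0.0382, and the first genes outside were Nalcn at 0.0530 and Adam22 at 0.0564. A looser rule on library values alone, with no overlap between DKO and control in CPM in either comparison, took in 1291 genes with these directions (8.6%) and 744 with the mirror image (4.95%). Ordered by the smaller of their 2 absolute log2 fold changes, Art4 was at place 28, Pdlim3 at 37, Rab6b at 48, Nup210l at 153 and Prkab2 at 198. Close to Prkab2 in that order, Snora31 had a smaller absolute log2 fold change of 0.89, the same as Prkab2 at this rounding.

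**Figure D2:**
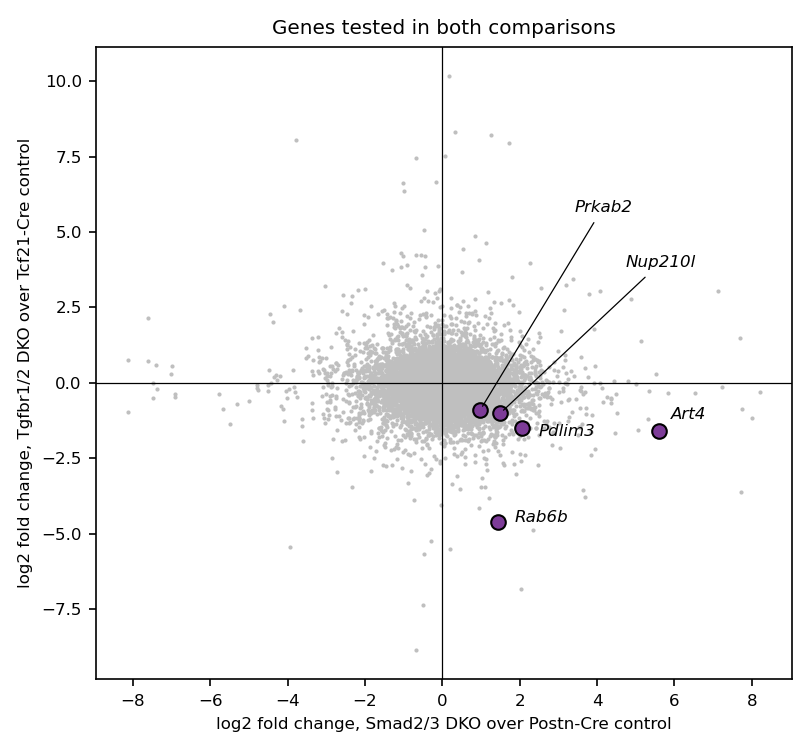
Log2 fold change in the Smad2/3 comparison (horizontal) against the Tgfbr1/2 comparison (vertical), each DKO over its control, for 15017 genes tested in both (grey points) and the 5 genes described (purple). The 5 lie at the lower right because they were chosen for it, with Art4 farthest right at 5.60 and Rab6b lowest of them at -4.61.

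Relatives and partners of the 5 proteins mostly did not pass the test. The lists held ADP-ribosyltransferases for Art4, the second Rab6 isoform with exchange factors, effectors and GTPase-activating proteins for Rab6b, PDLIM proteins and alpha-actinins for Pdlim3, AMPK subunits, upstream kinases and targets for Prkab2, and nucleoporins for Nup210l. With the 5 genes left out, 81 listed genes were tested in the Smad2/3 comparison, of which 0 rose and 1 fell (1.23%), beside 1.31% of all genes. Of 85 tested in the Tgfbr1/2 comparison, 1 rose and 0 fell (1.18%, beside 3.94% of all genes). With DESeq2 6 passed in the Smad2/3 comparison and 1 in the Tgfbr1/2 comparison. DESeq2 called more genes in all, 769 and 1134 against 206 and 657 with edgeR, so the shares of all genes given above do not apply to its counts. The median log2 fold change of the listed genes was -0.04 in the Smad2/3 comparison and 0.03 in the Tgfbr1/2 comparison, beside 0.01 and -0.01 over all genes tested.

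The 5 ADP-ribosyltransferases of the Art4 list were scarcely expressed apart from Art3. Art3 had 7.21 and 7.26 CPM in Smad2/3 DKO, against 6.23 and 10.6 CPM in Postn-Cre controls, and 9.88 and 12.7 CPM in Tgfbr1/2 DKO, against 13.5 and 19.4 CPM in Tcf21-Cre controls. Its log2 fold changes were -0.27 and -0.47, with adjusted p of 0.860 and 0.415 by edgeR's quasi-likelihood test. Art3 overlapped between groups in the Smad2/3 comparison and was lower in both Tgfbr1/2 DKO libraries than in either control, as Art4 was. Neither of the 2 list members tested in each comparison passed edgeR's test or DESeq2, and 0 were at an unadjusted p under 0.05.

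Of the 20 genes on the Rab6b list, all were tested in both comparisons and none passed in either, with 2 and 3 at an unadjusted p under 0.05 in edgeR's test. DESeq2 called 1 of them, Bicd1, in the Smad2/3 comparison and 0 in the Tgfbr1/2 comparison. Rab6a, the broadly expressed isoform, had 322 and 321 CPM in Smad2/3 DKO, against 371 and 379 CPM in Postn-Cre controls, and 190 and 198 CPM in Tgfbr1/2 DKO, against 194 and 160 CPM in Tcf21-Cre controls. Its log2 fold changes of -0.28 and 0.23 had adjusted p of 0.440 and 0.552 by edgeR's quasi-likelihood test. Bicd1, a dynein adaptor bound by Rab6, had 28.4 and 22.8 CPM in Smad2/3 DKO, against 10.5 and 10.8 CPM in Postn-Cre controls, and 8.68 and 8.22 CPM in Tgfbr1/2 DKO, against 18.0 and 14.1 CPM in Tcf21-Cre controls. The Bicd1 groups did not overlap in either comparison, but with log2 fold changes of 1.20 ± 0.31 and -0.84 ± 0.26 (SE) its adjusted p by edgeR's test were 0.0972 and 0.104. Among the genes whose profiles were compared, Bicd1 was also the one most like Nup210l.

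On the Pdlim3 list, 1 of 9 tested genes fell in the Smad2/3 comparison and 0 of 10 passed in the Tgfbr1/2 comparison, where 2 were at an unadjusted p under 0.05 in edgeR's test and DESeq2 called 0. Pdlim5, another actinin-binding PDZ and LIM protein, had 253 and 230 CPM in Smad2/3 DKO, against 401 and 378 CPM in Postn-Cre controls. It fell, opposite to Pdlim3, with a log2 fold change of -0.75 ± 0.15 (SE) and an adjusted p of 0.0365 by edgeR's quasi-likelihood test. That call was lost without control HK3, without DKO HK15, without DKO HK16 and in a fit of all 8 libraries. DESeq2 called 2 genes of the list in the Smad2/3 comparison, Pdlim5 and Pdlim2. Pdlim2 had 14.9 and 20.7 CPM in Smad2/3 DKO, against 8.42 and 3.70 CPM in Postn-Cre controls, the same direction as Pdlim3, with a log2 fold change of 1.49 ± 0.45 (SE) and an adjusted p of 0.146 by edgeR's quasi-likelihood test. In Tgfbr1/2 DKO Pdlim5 had 297 and 304 CPM, against 373 and 312 CPM in Tcf21-Cre controls, with a log2 fold change of -0.10 and an adjusted p of 0.822 in the same test.

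None of the 21 AMPK genes tested in the Smad2/3 comparison and none of the 22 tested in the Tgfbr1/2 comparison passed edgeR's test, with 3 and 2 at an unadjusted p under 0.05. DESeq2 called 2 in the Smad2/3 comparison, among them Prkag2, an AMPK gamma subunit, and 0 in the Tgfbr1/2 comparison. Prkab1, the other beta subunit, had 16.6 and 12.9 CPM in Smad2/3 DKO, against 14.2 and 7.96 CPM in Postn-Cre controls, and 31.0 and 23.6 CPM in Tgfbr1/2 DKO, against 20.04 and 22.3 CPM in Tcf21-Cre controls. Its adjusted p were 0.775 and 0.299 by edgeR's quasi-likelihood test. Prkab1 overlapped between groups in the Smad2/3 comparison and was higher in both Tgfbr1/2 DKO libraries than in either control. Fnip1, a folliculin-interacting protein that binds AMPK, was the most abundant gene on the list, at 285 and 347 CPM in Smad2/3 DKO, against 255 and 273 CPM in Postn-Cre controls, and at 60.2 and 73.3 CPM in Tgfbr1/2 DKO, against 107 and 75.4 CPM in Tcf21-Cre controls. It did not pass, with adjusted p of 0.648 and 0.399 in edgeR's test.

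Of the nucleoporins, 0 of 29 passed in the Smad2/3 comparison, with 3 at an unadjusted p under 0.05 in edgeR's test. DESeq2 called 1, Nup188 of the inner ring. Its log2 fold changes of -0.84 and 0.62 were opposite to those of Nup210l, with adjusted p of 0.147 and 0.0940 by edgeR's quasi-likelihood test. In the Tgfbr1/2 comparison 1 of 31 rose. There 6 (Nup62, Nup93, Nup188, Nup205, Sec13 and Aaas) were at an unadjusted p under 0.05 in edgeR's test, each higher in DKO, opposite to Nup210l. Sec13, which works in the nuclear pore scaffold and in the COPII coat, had 75.1 and 68.1 CPM in Tgfbr1/2 DKO, against 41.5 and 40.2 CPM in Tcf21-Cre controls. Its log2 fold change was 0.89 ± 0.18 (SE) with an adjusted p of 0.0238 by edgeR's quasi-likelihood test, and the call was lost when any 1 of the 4 libraries (DKO HK2 and HK4, control HK6 and HK7) was left out and in the fit of all 8. Sec13 had 15.98 and 21.7 CPM in Smad2/3 DKO, against 14.8 and 18.7 CPM in Postn-Cre controls, with an adjusted p of 0.930 in edgeR's test. Nup210, the closest relative of Nup210l, was at 0 to 0.548 CPM in the 8 libraries.

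**Figure D3:**
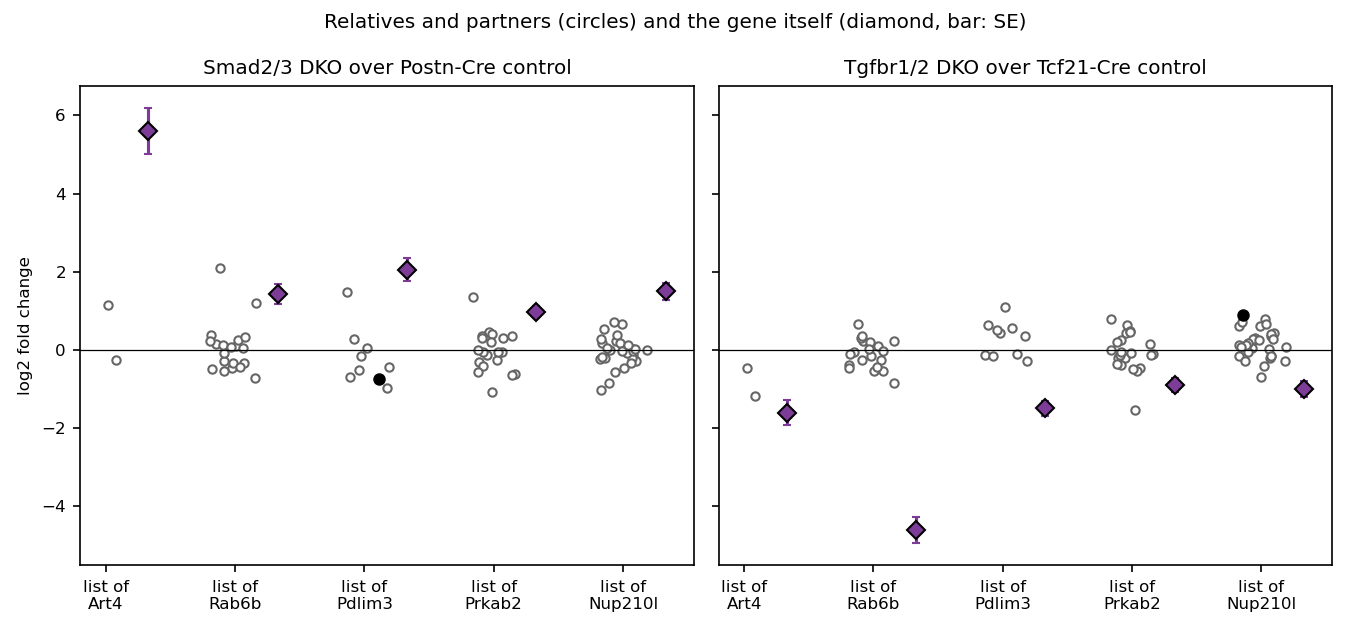
Log2 fold change (vertical axis) of the listed relatives and partners (circles, filled where the adjusted p is under 0.05) and of the gene itself (diamond, bar: SE), by list, in the Smad2/3 comparison (left) and the Tgfbr1/2 comparison (right). The diamonds stand above the horizontal line on the left and below it on the right by choice, while the circles scatter around it with medians of -0.04 and 0.03.

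The share of each gene in the summed level of its paralogues, per kilobase of exon, is a description, since it includes the chosen gene. Rab6b made up 9.71% and 8.89% of the summed Rab6a and Rab6b level in Smad2/3 DKO, against 2.81% and 3.28% in Postn-Cre controls. It made up 0.912% and 1.13% in Tgfbr1/2 DKO, against 26.0% and 19.1% in Tcf21-Cre controls. Rab6a was thus the main isoform in all 8 libraries.

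Prkab2 made up 91.4% and 93.1% of the AMPK beta subunit level in Smad2/3 DKO, against 85.3% and 91.8% in Postn-Cre controls, shares that overlapped. In Tgfbr1/2 DKO its share was 52.0% and 59.2%, against 77.9% and 73.8% in Tcf21-Cre controls. The beta-2 subunit stayed the larger of the pair in all 8 libraries, but by little in Tgfbr1/2 DKO. Pdlim3 made up 12.2% and 12.5% of the level of 7 PDLIM genes, Ldb3 included, in Smad2/3 DKO, against 3.10% and 2.15% in Postn-Cre controls, and 6.80% and 6.49% in Tgfbr1/2 DKO, against 16.5% and 17.8% in Tcf21-Cre controls.

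Art4 made up 72.6% and 69.9% of the level of 5 Art genes in Smad2/3 DKO, against 4.51% and 2.98% in Postn-Cre controls, where Art3 was the largest of the others. In Tgfbr1/2 DKO its share was 42.2% and 24.5%, against 52.4% and 49.9% in Tcf21-Cre controls. Nup210l made up 99.1% to 100% of the sum with Nup210 in all libraries, so for this pair the share had no room to differ.

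**Figure D4:**
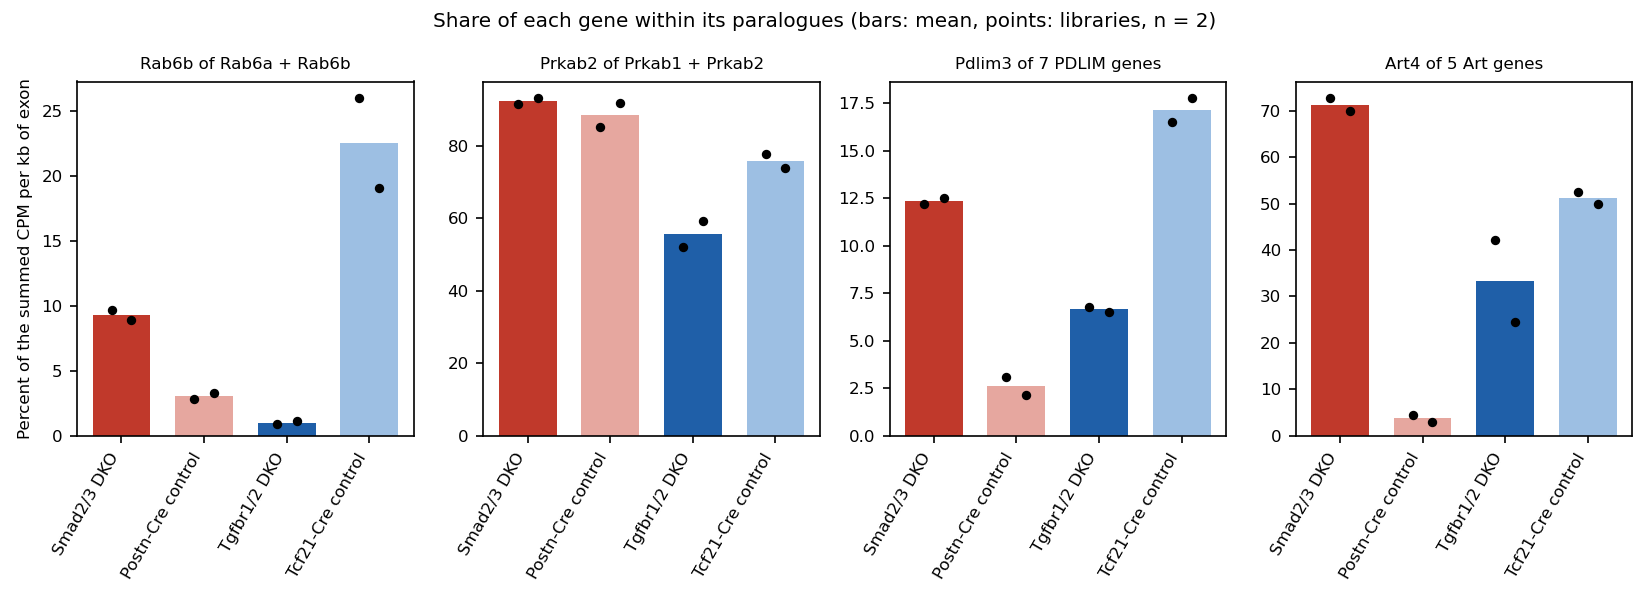
Percent of the summed CPM per kilobase of exon that Rab6b, Prkab2, Pdlim3 and Art4 take within their paralogues, by group, with bars at the mean and a point per library (n = 2). Rab6b is the minor isoform in each group and Prkab2 the major subunit in each group, and the Art4 share is near 0 only in Postn-Cre controls (4.51% and 2.98%).

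Neighbouring genes were read because a change shared along a stretch of chromosome would show in them. Within 250 kb of the 5 genes, measured between gene bodies so that start sites can lie farther apart, were 62 genes, of which 50 were tested in the Smad2/3 comparison with 2 higher and 0 lower (4%, beside 1.31% of all genes). The Tgfbr1/2 comparison tested 47, with 1 higher and 0 lower (2.13%, beside 3.94% of all genes). The median log2 fold change of the neighbours was 0.17 in both comparisons. Around Prkab2 and Nup210l, 0 neighbours passed edgeR's test in either comparison. At an unadjusted p under 0.05 were 1 and 1 around Prkab2 and 2 and 3 around Nup210l, and DESeq2 called 1 of these, Il6ra near Nup210l, in the Smad2/3 comparison.

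Near Art4, Arhgdib lay 65.9 kb away. It had 95.1 and 113 CPM in Smad2/3 DKO, against 48.9 and 48.5 CPM in Postn-Cre controls, a log2 fold change of 1.04 ± 0.20 (SE) with an adjusted p of 0.0316 by edgeR's quasi-likelihood test. The call was lost without DKO HK15, without DKO HK16 and in the fit of all 8 libraries. In Tgfbr1/2 DKO Arhgdib had 97.2 and 111 CPM, against 63.5 and 88.9 CPM in Tcf21-Cre controls, which is the direction opposite to Art4, with an adjusted p of 0.231 in edgeR's test. Of the nearest tested genes, Mgp, the matrix Gla protein that restrains calcification, did not pass in either comparison and BC049715 did not pass in the Smad2/3 comparison. Of 9 neighbours tested there, 5 were at an unadjusted p under 0.05 in edgeR's test. H2afj, Mgp, Erp27 and Arhgdib were higher in DKO, as Art4 was, and Plbd1 was lower. The median of the 9 was 0.37, beside 0.01 over all genes tested. In the Tgfbr1/2 comparison 2 of 8, H2afj and Arhgdib, were at an unadjusted p under 0.05 in edgeR's test. Both were higher in DKO, opposite to Art4.

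Near Rab6b, Trf, which encodes the iron carrier transferrin, lay 18.7 kb away. It had 38.0 and 35.6 CPM in Tgfbr1/2 DKO, against 16.9 and 12.3 CPM in Tcf21-Cre controls, and rose by a log2 fold change of 1.42 ± 0.22 (SE) with an adjusted p of 0.00882 by edgeR's quasi-likelihood test. Rab6b was 24.4-fold lower in the same libraries, so these neighbours ran in opposite directions. Trf had 21.5 and 20.02 CPM in Smad2/3 DKO, against 11.5 and 9.83 CPM in Postn-Cre controls, with an adjusted p of 0.226 in edgeR's test. The annotated gene Gm20425 overlaps Trf, and reads may have been divided between them. The nearest tested genes, Slco2a1 and Srprb, did not pass edgeR's test in either comparison. DESeq2 called Slco2a1, Gm20425 and Trf in the Tgfbr1/2 comparison and Gm20425 in the Smad2/3 comparison. Of 8 neighbours tested in the Tgfbr1/2 comparison, 5 (Ryk, Slco2a1, Srprb, Gm20425 and Trf) were at an unadjusted p under 0.05 in edgeR's test. Each of these was higher in DKO, opposite to Rab6b, while 1300017J02Rik and Cdv3 had negative log2 fold changes. The median of the 8 was 0.59, beside -0.01 over all genes tested.

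Near Pdlim3, Ccdc110 lay 15.1 kb away and had 1.21 and 4.00 CPM in Smad2/3 DKO, from 31 and 86 counts, against 0 counts in both Postn-Cre controls. Measured against a limit of 3 counts per control library it was at least 21.2-fold higher, with an adjusted p of 0.0345 by edgeR's quasi-likelihood test. The call was lost without control HK3, without DKO HK16 and in the fit of all 8 libraries. In Tgfbr1/2 DKO Ccdc110 had 0.092 and 0 CPM, against 1.37 and 0.308 CPM in Tcf21-Cre controls, the same direction as Pdlim3. It did not pass the filter on low counts in that comparison and was not tested there. Sorbs2, the nearest tested gene on the other side, did not pass in either comparison. Neither did the genes next to Prkab2 (Fmo5 and Pde4dip) or those next to Nup210l (Tpm3 and Rps27). Fmo5, 2.91 kb from Prkab2, had 22.4 and 24.9 CPM in Smad2/3 DKO, against 13.5 and 4.39 CPM in Postn-Cre controls. In Tgfbr1/2 DKO it had 26.0 and 20.1 CPM, against 32.5 and 39.7 CPM in Tcf21-Cre controls. Its log2 fold changes of 1.33 and -0.58 had the directions of Prkab2, with adjusted p of 0.223 and 0.175 by edgeR's quasi-likelihood test. Pde4dip had log2 fold changes of 0.002 and -0.15.

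**Figure D5:**
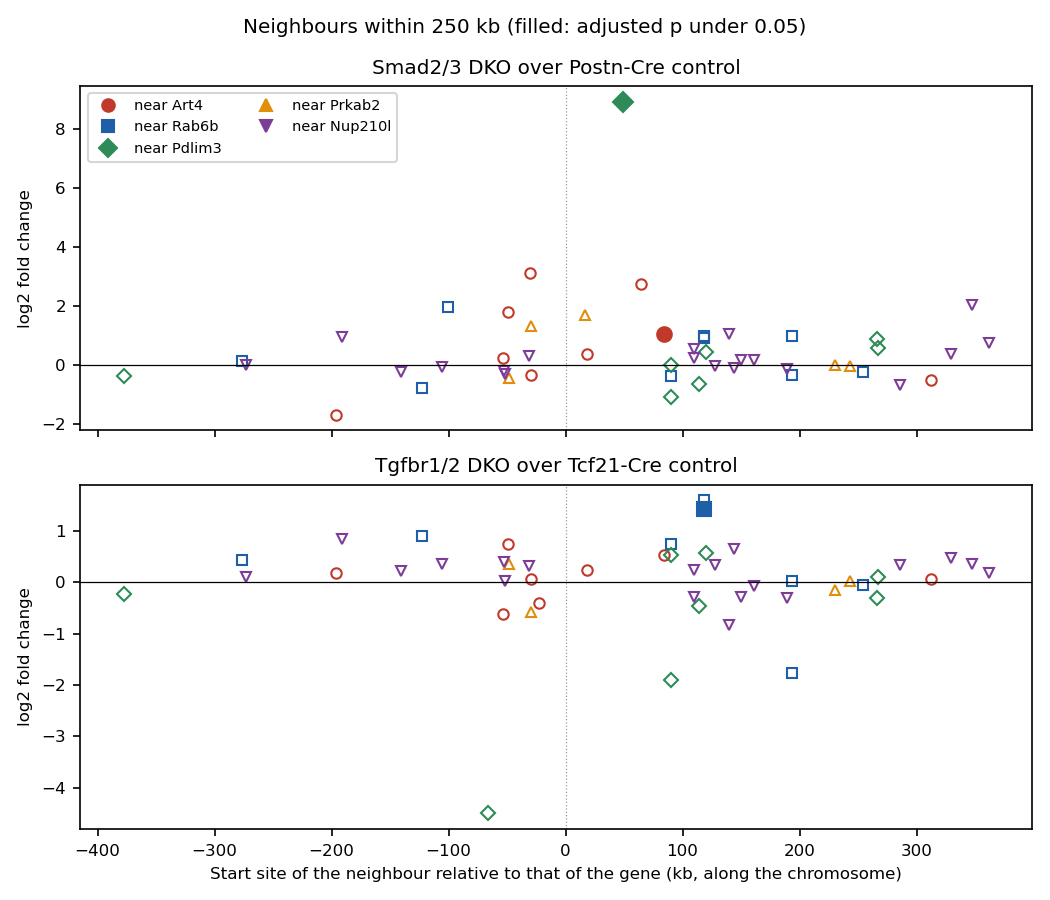
Log2 fold change of tested neighbours (vertical axis) by the distance of their start site from that of the chosen gene in kb (horizontal axis), in the Smad2/3 comparison (top) and the Tgfbr1/2 comparison (bottom), with symbols by chosen gene and filled where the adjusted p is under 0.05. The filled points are Arhgdib (near Art4) and Ccdc110 (near Pdlim3) in the top panel and Trf (near Rab6b) in the bottom panel, and the height of Ccdc110 depends on the fit's prior count because its controls had 0 counts.

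Markers of other cells also differed between groups. The sum of 10 myeloid markers was 197 and 215 CPM in Tgfbr1/2 DKO, against 55.7 and 82.9 CPM in Tcf21-Cre controls, and 24.6 and 19.8 CPM in Smad2/3 DKO, against 32.96 and 30.02 CPM in Postn-Cre controls. The sum of 10 endothelial markers was 531 and 510 CPM in Tgfbr1/2 DKO, against 445 and 400 CPM in Tcf21-Cre controls, and 224 and 145 CPM in Smad2/3 DKO, against 451 and 236 CPM in Postn-Cre controls. Both sums ran opposite to the 5 genes in each comparison. Eng was the largest part of the endothelial sum in Tgfbr1/2 DKO, at 310.5 and 279.1 CPM, against 189.7 and 172.2 CPM in Tcf21-Cre controls. Pecam1, Cdh5, Kdr, Tie1, Emcn and Vwf were also higher in both Tgfbr1/2 DKO libraries, and Esam and Egfl7 overlapped. Tek was lower in both, at 88.1 and 81.8 CPM, against 163 and 124 CPM in Tcf21-Cre controls. The part of both sums in the values of the 5 genes was not tested. In the authors' deposited table the log2 fold changes in the Smad2/3 comparison were 1.49 for Rab6b, 2.15 for Pdlim3, 1.04 for Prkab2 and 1.56 for Nup210l. In the same authors' deposited table those in the Tgfbr1/2 comparison were -1.70 for Art4, -3.85 for Rab6b, -1.57 for Pdlim3, -0.97 for Prkab2 and -1.07 for Nup210l.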

How the data were processed

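RNA was amplified with the Ovation RNA-Seq System v2 and made into Nextera XT libraries, per the labels' protocols. The submitters' processing notes name mm10 as the genome build. No counting tool is named there. The authors deposited estimated counts per Ensembl gene, not normalized, of which 12.63% of those above 0 were whole numbers (tolerance 1e-06). They also deposited centred log2 values, a log2 fold change, an absolute fold change (ratio) and a signed fold score per gene, per the file headers, and the log2 fold changes are quoted here as theirs.

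Here, 38087 entries were summed into 34399 symbols (278 symbols had several entries) and rounded. Each comparison was fitted alone in edgeR 4.0.16 (R 4.3.3) with filterByExpr, TMM scaling, robust quasi-likelihood fits and Benjamini-Hochberg adjustment at 0.05. The SE is the absolute log2 fold change divided by the square root of the F statistic. Replicate libraries differed by more than sampling noise. CPM divides by the library total. Limits of detection cover counting error only, while the SE also takes in differences between libraries of a group.

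The members and lists were chosen with earlier results of these data known. Named relatives were those called or the most abundant of each list, called neighbours within 250 kb and nearest tested genes, and the 2 profiles with the highest r. Names given for DESeq2 calls and direct paralogues were added after their values were seen. Alternatives were DESeq2 1.42.0, size factors of its type, no low-count filter, no robust estimation, unsummed entries, a fit of all 8 libraries, other windows and leaving out each library.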

Additional observations from a re-analysis of the deposited data

Results flagged for a closer look

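The effects of the 2 knockouts differed in sign for each of the 5 genes, with both DKO libraries on opposite sides of their own controls in the 2 comparisons. The genes were chosen for this, so the difference was not tested. In a fit of all 8 libraries the log2 effect in the Smad2/3 comparison minus that in the Tgfbr1/2 comparison was 7.20 ± 0.63 for Art4, 6.03 ± 0.43 for Rab6b, 3.53 ± 0.34 for Pdlim3, 2.49 ± 0.27 for Nup210l and 1.86 ± 0.22 for Prkab2 (SE, n = 2 libraries in each of 4 groups). Driver, run and targeted genes change together between the comparisons.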

How the results depend on the processing

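No log2 fold change of the 5 genes changed sign under any alternative run. Leaving out 1 library at a time gave Pdlim3 1.75 to 2.43 in the Smad2/3 comparison and -1.61 to -1.35 in the Tgfbr1/2 comparison, and Prkab2 -0.97 to -0.80 in the Tgfbr1/2 comparison, where the log2 ratio of mean CPM was -0.98. The adjusted p by edgeR's quasi-likelihood test that defined the 10 opposite genes depended on single libraries, which describes the selection and tests nothing. In the Smad2/3 comparison 4 of the 5 stayed under 0.05 without control HK3 (Rab6b was lost) and 2 without DKO HK15 (Rab6b, Prkab2 and Nup210l were lost). For the Tgfbr1/2 comparison 3 stayed without control HK6 or DKO HK2 and 2 without control HK7 or DKO HK4. Prkab2 and Nup210l were lost each time, and Art4 in the last 2 and in the fit of all 8 libraries. Pdlim3 stayed in all 8. The cause was not tested, beyond fewer samples.

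Genes called in the Smad2/3 comparison numbered 769 with DESeq2, 819 with no low-count filter and 102 to 297 without 1 library. The Tgfbr1/2 comparison had 1134 with DESeq2, 1229 with no low-count filter, 299 in the fit of all 8 libraries and 272 to 497 without 1 library. Listed relatives called in the Smad2/3 comparison numbered 6 with DESeq2, 3 with no filter, 0 in the fit of all 8 and 0 to 1 without 1 library. The Tgfbr1/2 comparison had 2 with no filter, 0 in the fit of all 8 and 0 to 1 without 1 library. Neighbours called in the Smad2/3 comparison numbered 4 with DESeq2, 6 with no filter, 0 in the fit of all 8 and 0 to 2 without 1 library. The Tgfbr1/2 comparison had 3 with DESeq2, 4 with no filter, 2 in the fit of all 8, 3 in a window of 500 kb and 1 to 4 without 1 library. No paired analysis was possible because the HK numbers name libraries and compared groups share none. Depth limits Art4, whose Postn-Cre control levels rest on 6 and 5 counts.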
